A study of Mus musculus with 2 samples.

Results

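The cytosolic ribosomal protein genes were examined for EP300 binding in embryonic mouse liver. They were taken from the GENCODE vM21 annotation by name: protein-coding genes called Rpl or Rps with a number and at most the letters a, x or l, together with Rplp0, Rplp1, Rplp2 and Rpsa. Pseudogenes and the S6 kinase genes, which carry similar names, were left out. This gave 81 genes out of 21755 protein-coding genes on the autosomes and X, 50 of the large subunit and 31 of the small subunit. They lay on 19 chromosomes, 4 of them on X.

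The samples were 2 chromatin immunoprecipitation sequencing (ChIP-seq) libraries made with an EP300 antibody from livers of B6NCrl mouse embryos at 14.5 days. Livers of both sexes from several dissections had been pulverized and pooled, and no genotype or treatment was labelled. Both libraries carry the same biosample label, so the spread between replicate 1 and replicate 2 may be technical. There was 1 group and no contrast between conditions, so counts of genes are given with 95% Wilson intervals, which cover counting error only, and no test was made.

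Ribosomal proteins assemble with ribosomal RNA into the small and large subunits that translate messenger RNA, and cells make them in near-equal amounts from genes scattered over the genome. Their transcripts usually begin with a run of pyrimidines, the terminal oligopyrimidine (TOP) tract, through which nutrient signals control their translation, and their introns often hold small nucleolar RNAs. EP300 is a lysine acetyltransferase and coactivator found at enhancers and at active promoters. In the liver at this stage the erythroid precursors make red cells, and in humans mutations of several ribosomal protein genes cause Diamond-Blackfan anaemia, a failure of red cell production.

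The tissue held binding near erythroid genes more than near hepatocyte genes. Of 8 erythroid marker genes, 8 had a peak within 20 kb and 7 within 1 kb of a transcription start site (TSS), with Slc4a1, the anion exchanger gene, at a promoter signal of 331.6. Of 8 hepatocyte markers, 5 (62.5%) had a peak within 20 kb and 0 within 1 kb, and the strongest of these lay near Apoa1 at 41.7. Over all protein-coding genes the shares were 38.6% within 20 kb and 15.5% within 1 kb. Of 4 genes of tissues outside the liver, 1 had a peak within 20 kb. This was Gad2, at 46.3, above every hepatocyte marker, so signal near single genes was a weak guide to cell type. In this mixed tissue, binding in fewer cells and weaker binding in each cell cannot be told apart.

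The upstream sequences of 6 ribosomal protein genes are shown because a word shared by several strong promoter peaks was noticed in them. The word was first noticed among the upstream sequences of the 6 genes with the strongest peaks among those with a RefSeq sequence. These were Rps19, Rpl26, Rps6, Rpl12, Rpl10a and Rpl7a. The RefSeq promoter of Rpl10a did not hold the word, which lay within 100 bp of its summit. Of the genes printed, 5 were chosen because they carry it. Each runs for 100 bases up to the base before the RefSeq start, 5′ to 3′ on the strand of the gene, on GRCm38 (mm10). Capitals mark the word TCTCGCGA and, where it was whole, the palindrome TCTCGCGAGA to which it belongs. Rpl27, encoding a large-subunit protein, is shown as a promoter with a strong peak and no such word. The stretches were chr7:24884492-24884591 (plus strand) for Rps19, chr11:68901466-68901565 (plus) for Rpl26, chr4:86857368-86857467 (minus) for Rps6, chr2:32961612-32961711 (plus) for Rpl12, chr2:26910707-26910806 (plus) for Rpl7a and chr11:101442145-101442244 (plus) for Rpl27.
Rps19: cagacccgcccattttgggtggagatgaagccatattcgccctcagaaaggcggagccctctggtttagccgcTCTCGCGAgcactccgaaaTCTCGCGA
Rpl26: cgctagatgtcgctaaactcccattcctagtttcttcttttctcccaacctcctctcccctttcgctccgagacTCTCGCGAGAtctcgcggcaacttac
Rps6: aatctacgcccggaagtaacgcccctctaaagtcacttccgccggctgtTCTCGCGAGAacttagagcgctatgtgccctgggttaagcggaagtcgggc
Rpl12: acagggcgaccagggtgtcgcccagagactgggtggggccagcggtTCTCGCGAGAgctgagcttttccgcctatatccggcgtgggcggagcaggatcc
Rpl7a: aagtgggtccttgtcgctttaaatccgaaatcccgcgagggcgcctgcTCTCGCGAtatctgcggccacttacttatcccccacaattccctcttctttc
Rpl27: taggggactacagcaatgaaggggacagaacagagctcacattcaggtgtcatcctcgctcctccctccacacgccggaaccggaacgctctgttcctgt
The EP300 summit stood 16 bases before the RefSeq start in Rps19, 20 in Rpl26, 62 in Rps6, 69 in Rpl12 and 33 in Rpl7a, inside the sequence printed for each. In Rpl27 it stood 29 bases after that start.

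EP300 was found at the promoters of ribosomal protein genes of both subunits. An optimal peak, one that passed the authors' reproducibility threshold, had its summit within 1 kb of a TSS of 46 of the 81 genes (56.8%, 45.9 to 67.0), against 15.5% of all protein-coding genes. Within 20 kb, 62 of the 81 (76.5%, 66.2 to 84.4) had a peak, against 38.6% of all protein-coding genes. A further 16 genes had a peak only between 1 and 20 kb, and 19 had none within 20 kb. Together the promoters held 61 different peaks.

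Ribosomal protein genes have more annotated TSSs than most genes, with a median of 6 against 3, and each TSS widens the sequence searched. Among genes with at least 6 TSSs, 29 of 44 ribosomal protein genes (65.9%) and 1601 of 5919 other genes (27.0%) had a promoter peak. With 1 TSS per gene, 40 of the 81 ribosomal protein genes (49.4%) had a promoter peak, against 12.5% of all protein-coding genes. A TSS of another coding gene lay within 1 kb for 19 ribosomal protein genes, 14 of which had a promoter peak, and among the other 62 genes 32 (51.6%) had one.

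The median height of these peaks was close to that of promoter peaks at other genes. Peak signal is the authors' own value for each peak, on a scale set within each list. Over the 46 ribosomal protein genes the strongest promoter peak had a median signal of 39.0, with quartiles of 25.7 and 77.9 and a range of 10.7 to 167.4, against a median of 36.0 for the promoter peaks of other coding genes. The median of all optimal peaks was 38.5, with 24 of the 46 above it and 22 below.

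**Figure D1:**
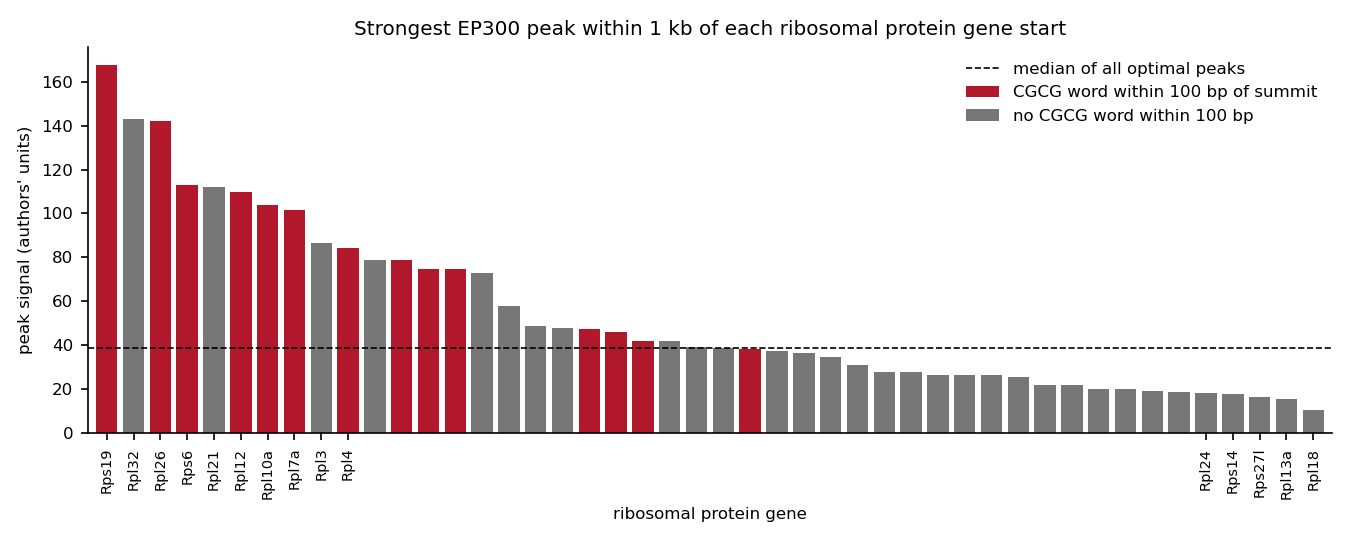
Signal of the strongest optimal EP300 peak within 1 kb of a TSS, 1 bar for each of the 46 ribosomal protein genes that had one, in the authors' units, with the 10 strongest and 5 weakest named. Red bars have the word TCTCGCGA (CGCG word) within 100 bp of the summit and grey bars do not, and the dashed line is the median of all optimal peaks, 38.5; red bars fill 7 of the 10 highest places.

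The strongest promoter peak lay at Rps19, a small-subunit protein gene and the first linked to Diamond-Blackfan anaemia. Its optimal signal was 167.4, at chr7:24884491-24884633, with 75.4 in replicate 1 and 91.8 in replicate 2. Rpl32, a large-subunit gene, had 142.9 at chr6:115808799-115808977, with 76.9 in replicate 1 and 66.5 in replicate 2. Rpl26, a large-subunit gene on the Diamond-Blackfan list, had 142.3 at chr11:68901376-68901715, with 64.0 in replicate 1 and 75.8 in replicate 2. These 3 peaks were the highest of the set in both libraries, in a different order in each.

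Next came Rps6, whose protein is the classic substrate of S6 kinase, with an optimal signal of 113.1 at chr4:86857259-86857598. It had 55.4 in replicate 1 and 53.4 in replicate 2. Rpl21 had 112.1 at chr5:146832864-146833203, with 59.9 in replicate 1 and 50.3 in replicate 2. For both genes the libraries differed by less than they did for Rps19. Rpl12, a protein of the ribosomal stalk base, had 110.0 at chr2:32961473-32961812, with 48.8 in replicate 1 and 53.4 in replicate 2, and its summit was nearer to the start of the neighbouring Lrsam1 gene (29 bp) than to the nearest annotated TSS of Rpl12 (77 bp). Rpl10a had 103.9 at chr17:28328377-28328716, with 38.9 in replicate 1 and 63.1 in replicate 2, a wider gap than in the genes before it. Rpl7a had 101.5 at chr2:26910604-26910943, with 50.1 in replicate 1 and 48.7 in replicate 2. Rpl3, which lies near the peptidyl transferase centre, had 86.7, with 45.9 in replicate 1 and 44.5 in replicate 2. Rpl4, whose protein lines the exit tunnel, had 84.3, with 47.9 in replicate 1 and 38.3 in replicate 2, and its summit, at −170 bp from the Rpl4 start, was nearer to that of Zwilch (101 bp). In Rpl7a, Rpl3 and Rpl4 replicate 1 was the higher library.

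At the other end, the weakest promoter peaks were matched by a summit within 100 bp in 1 library only or were low in the other. Rpl18 had an optimal signal of 10.7, with 11.2 in replicate 1 and no summit within 100 bp in replicate 2. Rpl13a, whose human protein silences inflammatory mRNAs, had 15.4, with 16.5 in replicate 1 and no such summit in replicate 2. Neither summit was thus matched within 100 bp in both libraries. Within 1 kb of a TSS, however, the strongest replicate 2 summit had 15.8 at Rpl18 and 14.7 at Rpl13a. Rps14 had 17.9, with 13.4 in replicate 1 and none in replicate 2. Rpl24 had 18.1, with 16.3 in replicate 2 and none in replicate 1. Rps27l, a paralog of Rps27, had 16.5, with 11.8 in replicate 1 and 4.69 in replicate 2, where it ranked 130067 of 300000 peaks.

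Both libraries had a summit within 100 bp of the promoter peak in 36 of the 46 genes (78.3%), against 77.5% of the other coding genes with a promoter peak. In 5 genes only replicate 1 had one and in 5 only replicate 2. Over the 36 genes the 2 libraries ordered the promoters alike, with a Spearman correlation of 0.84 and a Pearson correlation of log2 signal of 0.78, as a description of libraries that share their tissue pool. Replicate 1 was higher in 19 of the 36, and the median ratio of replicate 1 to replicate 2 was 1.03. Among summits matched within 100 bp, the largest ratio was in Rps2, at 26.6 in replicate 1 and 5.03 in replicate 2. Rpl23a followed, at 8.02 in replicate 1 and 20.5 in replicate 2. Both ratios depend on that match. Within 1 kb of a TSS, the strongest replicate 2 summit of Rps2 had 23.2 and the strongest replicate 1 summit of Rpl23a had 26.7. By difference the gap was widest in Rps7, at 51.8 in replicate 1 and 26.6 in replicate 2.

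**Figure D2:**
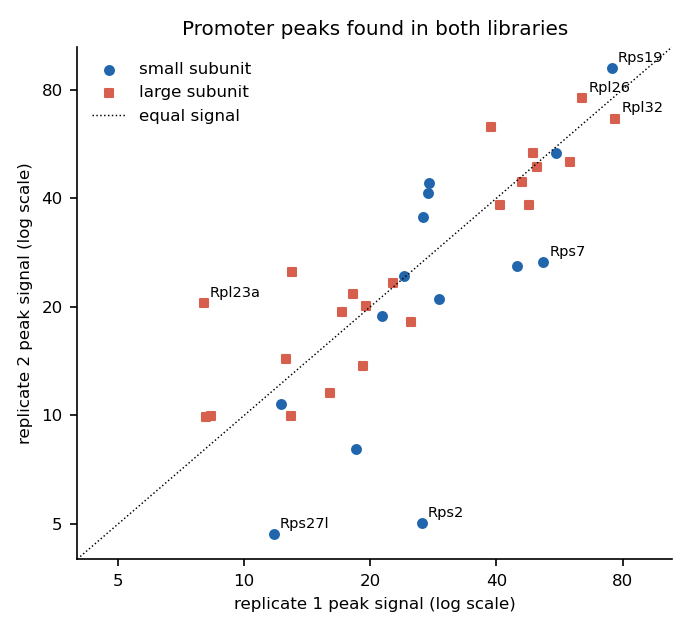
Peak signal in replicate 1 (horizontal, log scale) and replicate 2 (vertical, log scale) for the 36 ribosomal protein genes whose promoter summit was found in both libraries, circles for the small subunit, squares for the large subunit and a dotted line for equal signal. Rps19, Rpl26 and Rpl32 stand at the upper right, while the summits matched within 100 bp for Rps2 and Rps27l fall at 5.03 and 4.69 in replicate 2.

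EP300 summits sat close to the start of transcription. The median position was −28.5 bp from the nearest TSS, that is upstream, with a range of −449 to 931 bp. Of the 46, 28 (60.9%) were upstream, against 67.4% of the other coding genes with a promoter peak. The side depended on the TSS set. With 1 TSS per gene the median was 60 bp, that is downstream, in ribosomal protein genes and −39 bp in other genes. Summits of 43 of the 46 ribosomal protein genes (93.5%) lay within 200 bp of a TSS, against 2008 of 3323 other coding genes with a promoter peak (60.4%). The median absolute distance was 63 bp in ribosomal protein genes and 132 bp in the other genes. With 1 TSS per gene the shares within 200 bp were 87.5% in ribosomal protein genes and 56.9% in other genes, and among genes with at least 6 TSSs they were 93.1% and 61.6% in the same order. The 3 exceptions were Rps18 at 931 bp, Rplp1 at −449 bp and Rpl18 at −338 bp. The Rps18 summit lay 122 bp from the start of B3galt4.

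**Figure D3:**
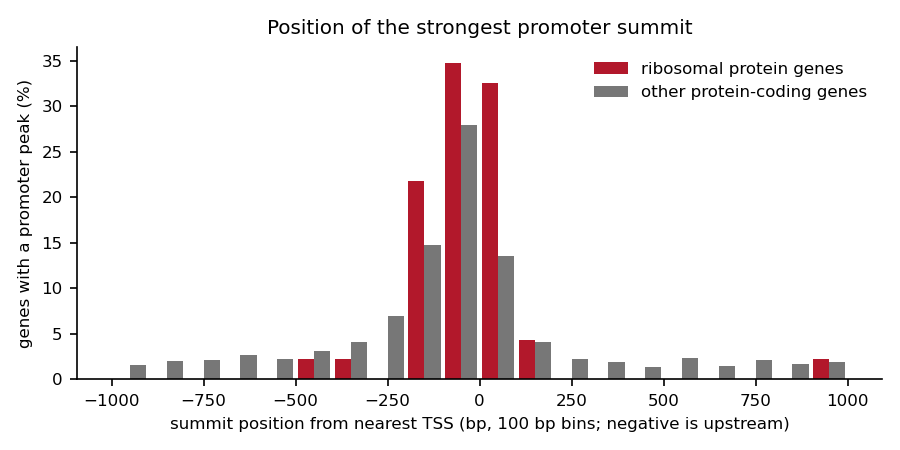
Position of the strongest promoter summit relative to the nearest TSS, in 100 bp bins, as a percentage of the 46 ribosomal protein genes (red) and of the 3323 other protein-coding genes (grey) with a promoter peak; negative positions are upstream. The 2 bins on either side of the start hold 34.8% and 32.6% of the ribosomal protein genes and 28.0% and 13.6% of the other genes.

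Several ribosomal protein promoters held more than 1 peak. There were 11 such genes, 13.6% of the 81, against 4.0% of all protein-coding genes. Among genes with any promoter peak the shares were similar, at 11 of 46 ribosomal protein genes and 871 of 3369 protein-coding genes. The 11 included Rpl12, Rpl13a, Rpl18, Rpl22, Rpl24, Rpl27, Rpl37 and Rps18. Rps18, beside Vps52 and B3galt4, held 5, with signals between 5.53 and 25.5. Rpl13a, an intron host of 4 small nucleolar RNAs, held 3, with signals between 11.5 and 15.4. Except in Rpl12 and Rpl27, the strongest peak of each of these genes was below 38.5, the median of all optimal peaks.

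The intervals of the 2 subunits overlapped. Of the small-subunit genes 16 of 31 (51.6%, 34.8 to 68.0) had a promoter peak, at a median signal of 46.9. Of the large-subunit genes 30 of 50 (60.0%, 46.2 to 72.4) had one, at a median signal of 37.0. Small nucleolar RNA genes lay inside 29 of the 81 genes. Of these hosts 16 (55.2%) had a promoter peak, at a median signal of 46.7, against 30 of the 52 non-hosts (57.7%), at a median of 35.7.

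Of 20 genes mutated in human Diamond-Blackfan anaemia, 13 (65.0%, 43.3 to 81.9) had a promoter peak, at a median signal of 38.8, and 15 had a peak within 20 kb. The 3 strongest were Rps19 and Rpl26, given before, and Rpl27, with an optimal signal of 78.9, 40.9 in replicate 1 and 38.4 in replicate 2. The 3 weakest were Rpl18, Rpl5 and Rpl11. Rpl5, which with Rpl11 and the 5S RNA inhibits MDM2, had 20.1, with 11.8 in replicate 1. Replicate 2 had no summit within 100 bp of that peak, and its strongest within 1 kb of an Rpl5 TSS had 9.07. Rpl11 had 26.5, with 13.0 in replicate 1 and 9.95 in replicate 2. The 7 without a promoter peak included Rpl15, Rpl35, Rps10, Rps27 and Rps29. All 20 had some summit within 1 kb in the pooled list, which has no reproducibility threshold, as did 93.8% of all ribosomal protein genes and 53.2% of all protein-coding genes.

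Of 5 paralogs, second copies of ribosomal protein genes, 2 had a promoter peak: Rps27l at 16.5 and Rpl36al at 22. Rpl10l, a testis copy of Rpl10, and Rpl39l, a germline copy of Rpl39, had none within 20 kb. Rpl3l, a muscle copy of Rpl3, had its nearest peak at 7731 bp, and that was the promoter peak of Rps2, at 41.9.

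The word TCTCGCGA was searched on both strands after it had been noticed in the strongest promoters, so its share and its signal in ribosomal protein genes partly restate how it was found. It forms most of the palindrome TCTCGCGAGA known from CpG-rich housekeeping promoters. It lay within 100 bp of the summit in 14 of the 46 ribosomal protein genes (30.4%, 19.1 to 44.8), against 250 of 3323 other coding genes (7.52%). Of the 10 strongest, 7 had it: Rps19, Rpl26, Rps6, Rpl12, Rpl10a, Rpl7a and Rpl4. Rps7, Rps15a, Rps28 and Rpl23a had it too. The remaining 3 of the 10 were Rpl32, Rpl21 and Rpl3.

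Leaving out the 6 genes whose sequences prompted the word, 8 of 40 ribosomal protein genes had it (20%). Their median promoter signal was 60.9 (38.4 to 84.3), against 27.6 (10.7 to 142.9) in the 32 without it, and the ranges overlapped. In replicate 1 the medians were 28.3 with the word and 17.1 without it, and in replicate 2 they were 24.7 with the word and 16.3 without it. The other coding genes, which played no part in the choice of the word, had medians of 65.7 with the word and 34.2 without it. The word lay a median of 15.5 bp from the summit in ribosomal protein genes and 16 bp in the other genes.

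The RefSeq promoter sequences, 250 bases before to 50 after each start, were searched for the word without regard to the peaks. They were held for 61 of the 81 ribosomal protein genes and 16372 other coding genes. The word occurred in 9 of the 61 (14.8%) and in 248 of the others (1.51%). Of those 9 ribosomal protein genes 5 were among the genes whose sequences prompted the word. Of the remaining 4, Rpl27a, Rps15a and Rps28 had a promoter peak and Rpl35 had none, with 16.1 in the pooled list, and 26 of the 52 without the word (50%) had one. Among the other coding genes 188 of the 248 with the word (75.8%) and 2456 of the 16124 without it (15.2%) had a promoter peak.

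Further motifs were looked for in the same windows, on either strand. The ETS word CCGGAA occurred in 17 of the 46 ribosomal protein genes (37.0%, 24.5 to 51.4) and in 19.2% of the other coding genes. The YY1 word GCCATNTT occurred in 8 (17.4%, 9.09 to 30.7) and in 7.10% of the others. Within 50 bp of the summit its shares were close, at 4.35% and 3.73% in the same order. GATA words (GATA with A or T before it and A or G after it), the class read by the erythroid factor GATA1, occurred in 10 (21.7%, 12.3 to 35.6) and in 37.5% of the others. Among the 10 strongest ribosomal protein promoters Rpl4 was the only gene with a GATA word, while Rpl32, Rpl26, Rps6, Rpl21 and Rpl10a had the ETS word.

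The GC box GGGCGG occurred in 22 of the 46 ribosomal protein genes (47.8%) and in 36.9% of the other genes, and the CACCC box CCNCNCCC, which can overlap it on the opposite strand, in 14 (30.4%) and 42.5% of the others. The CCAAT word occurred in 11 (23.9%) and in 27.4% of the others. TATAAA and the E-box CACGTG each occurred in 3, and the NRF1 word and the CRE word TGACGTCA in 1 each. The intervals of these 7 motifs held the shares of the other genes. The 201-base windows had a median GC content of 59.5% in ribosomal protein genes and 57.2% in the others, with medians of 16 and 12 CpG dinucleotides in the same order. In the RefSeq promoters the ETS word occurred in 47.1% of the ribosomal protein genes with a promoter peak and in 51.9% of those without one. GATA words, by contrast with the windows around the summits, occurred there in 21.3% of the ribosomal protein genes and 25.8% of the other coding genes, and in 26.5% of the ribosomal protein genes with a promoter peak against 14.8% of those without one. The CACCC box occurred there in 60.7% of the ribosomal protein genes and 57.5% of the others.

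**Figure D4:**
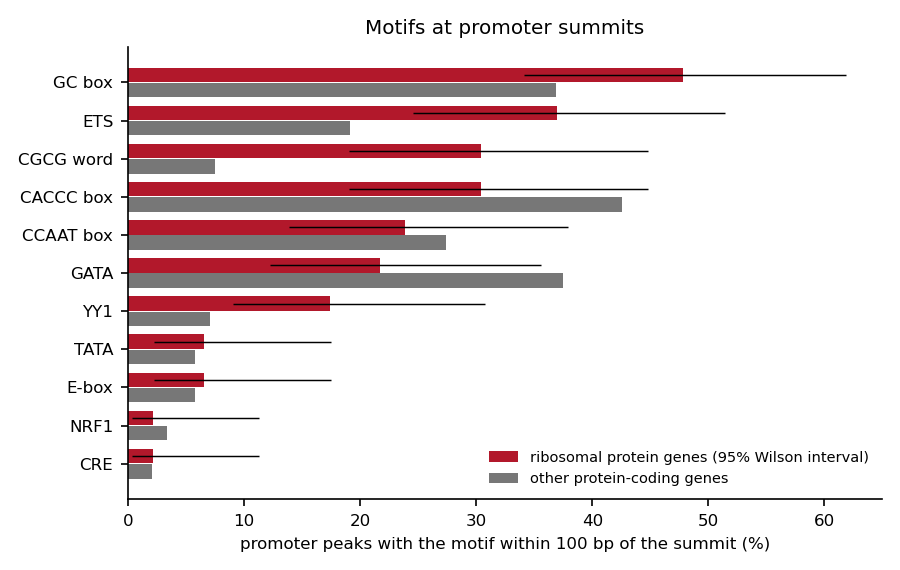
Share of promoter peaks with each motif within 100 bp of the summit, in the 46 ribosomal protein genes (red, with 95% Wilson intervals) and in the 3323 other protein-coding genes (grey), in percent. The CGCG word TCTCGCGA stands at 30.4% against 7.52%, and GATA at 21.7% against 37.5%.

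Pyrimidine runs near the start are shown for genes with and without a promoter peak. Each sequence is 30 bases around the RefSeq start on GRCm38, 5′ to 3′ on the strand of the gene, base 16 is the start, and capitals mark the longest pyrimidine run. The marked run spans the start except in Rps15a, where it ends before it, and in Rps26, where it begins after it. In Rps15a a shorter pyrimidine run, left in lower case, spans the start. The marked runs of Rps15a and Rps26 were not shown to be TOP tracts. Rps6, Rpl7a, Rps15a and Rps26 had an optimal promoter peak, and Rpl28, Rps10 and Rps27 had none. The positions were chr4:86857353-86857382 (minus strand) for Rps6, chr2:26910792-26910821 (plus) for Rpl7a, chr7:118116133-118116162 (minus) for Rps15a, chr10:128626492-128626521 (minus) for Rps26, chr7:4792950-4792979 (plus) for Rpl28, chr17:27635230-27635259 (minus) for Rps10 and chr3:90213634-90213663 (minus) for Rps27.
Rps6: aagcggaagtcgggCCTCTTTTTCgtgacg
Rpl7a: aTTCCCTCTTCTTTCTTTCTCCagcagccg
Rps15a: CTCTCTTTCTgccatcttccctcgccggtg
Rps26: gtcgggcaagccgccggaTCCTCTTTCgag
Rpl28: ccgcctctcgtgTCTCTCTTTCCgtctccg
Rps10: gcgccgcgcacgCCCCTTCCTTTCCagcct
Rps27: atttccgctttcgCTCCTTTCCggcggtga
A run of at least 8 pyrimidines within 10 bases of the start occurred in 26 of the 61 ribosomal protein genes in the RefSeq table (42.6%) and in 13.6% of the other coding genes. It was present in 13 of the 34 with a promoter peak (38.2%) and in 13 of the 27 without one (48.1%).

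The 35 ribosomal protein genes without an optimal promoter peak were not all empty. In the pooled list 30 of them had a summit within 1 kb, at a median signal of 13.6, and 53.2% of all protein-coding genes had such a summit. Rps12 was the highest, at 42.4 and pooled rank 7886, with 19.9 in replicate 1 and 26.5 in replicate 2. Rpl10, Rpl29, Rpl36, Rpl39, Rps12 and Rps15 were also among the 17055 strongest peaks of both libraries. No pooled summit lay within 1 kb of Rpl10l, Rpl39l, Rps16, Rps9 or Rpsa, the laminin receptor gene.

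The conservative list, the authors' smaller set of 15728 peaks, also held 46 of the 81 genes within 1 kb, but not the same ones. It held 14.5% of all protein-coding genes. In both lists were 38 genes. Only the conservative list held Rpl10, Rpl28, Rpl29, Rpl30, Rpl36, Rplp2, Rps12 and Rps15, and only the optimal list held Rpl23a, Rpl6, Rpl9, Rplp1, Rps14, Rps2, Rps24 and Rps27l. The 27 genes in neither included the stalk protein gene Rplp0 and Rps16 and Rps20 of the small subunit.

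The 19 genes with no optimal peak within 20 kb included Rpl15, Rpl19, Rpl23, Rpl30, Rpl36, Rpl38, Rpl39, Rplp0, Rplp2, Rps10, Rps12, Rps13, Rps15, Rps20, Rps25 and Rps27. The 16 with a peak only at 1 to 20 kb included Rpl10, Rpl13, Rpl14, Rpl28, Rpl29, Rpl35, Rpl37a, Rps16, Rps21, Rps29, Rps4x, Rps9 and Rpsa. In that second set the strongest peak within 20 kb was lowest at Rps9 (13.0) and Rpl13 (17.6) and highest at Rpsa (206.7).

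The highest signals within 20 kb were not at ribosomal protein promoters. The strongest lay 8081 bp downstream of the nearest Rpl6 start, in intergenic sequence at chr5:121216076-121216456, with an optimal signal of 391.6 (rank 126), 210.3 in replicate 1 and 182.2 in replicate 2, and the nearest coding start was that of Hectd4. A peak in an intron of Rpl3 had 341.7, with 164.8 in replicate 1 and 175.0 in replicate 2. A peak 17845 bp from Rpl34 had 325.3, with 167.2 in replicate 1 and 156.7 in replicate 2. It lay 117 bp from the start of Ostc, a subunit gene of the oligosaccharyltransferase. A peak 15203 bp from Rps23, in an intron of Atg10, had 276.5, with 121.9 in replicate 1 and 156.0 in replicate 2. The promoter signals of these 4 ribosomal protein genes were lower, at 27.7 for Rpl6, 86.7 for Rpl3, 21.7 for Rpl34 and 72.7 for Rps23.

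For 27 of the 62 genes with a peak within 20 kb, the strongest such peak was nearest to the start of another coding gene, and for 35 to that of the ribosomal protein gene. The peak for Rps16, at 167.2, lay 34 bp from the start of Supt5. The strongest peaks for Rpsa, at 206.7 and 158.7, lay in introns of Slc25a38, a mitochondrial glycine carrier gene needed for haem synthesis. Rps29 and Rpl36al shared peaks, and in all 9 peaks lay within 20 kb of more than 1 ribosomal protein gene.

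The sequences at 4 of these distal summits are shown because GATA words were more frequent there than at the promoters. Each is 201 bases centred on the summit, on the plus strand of GRCm38, with GATA words in capitals (TTATCT is AGATAA read on the other strand). They were chr5:121216177-121216377 near Rpl6, chr13:90939288-90939488 near Rps23, chr9:120112488-120112688 near Rpsa and chr10:128629867-128630067 near Rps26, where the signal was 111.0.
Rpl6: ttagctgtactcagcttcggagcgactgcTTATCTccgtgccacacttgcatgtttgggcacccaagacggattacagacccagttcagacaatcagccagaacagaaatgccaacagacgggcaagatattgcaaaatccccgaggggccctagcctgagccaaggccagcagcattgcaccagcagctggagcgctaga
Rps23: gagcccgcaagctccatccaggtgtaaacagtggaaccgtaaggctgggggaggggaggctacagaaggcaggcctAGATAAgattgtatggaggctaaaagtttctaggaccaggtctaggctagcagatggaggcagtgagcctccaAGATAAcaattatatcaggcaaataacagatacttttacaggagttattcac
Rpsa: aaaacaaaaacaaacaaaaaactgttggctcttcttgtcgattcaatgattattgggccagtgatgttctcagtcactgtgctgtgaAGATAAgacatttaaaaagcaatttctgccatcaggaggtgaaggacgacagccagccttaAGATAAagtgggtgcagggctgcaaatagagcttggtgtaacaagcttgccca
Rps26: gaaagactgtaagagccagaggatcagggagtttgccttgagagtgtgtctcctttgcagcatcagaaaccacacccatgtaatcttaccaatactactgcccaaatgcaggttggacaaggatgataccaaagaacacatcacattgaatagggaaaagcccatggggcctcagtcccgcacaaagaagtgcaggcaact
The windows near Rps23 and Rpsa held 2 GATA words each, that near Rpl6 held 1 and that near Rps26 held none. Of the 40 peaks within 20 kb of a ribosomal protein gene and over 1 kb from any annotated TSS, 31 had a GATA word (77.5%, 62.5 to 87.7), against 85.2% of the 7759 other such peaks within 20 kb of coding genes. Their median signal was 35.1, with a range of 5.32 to 391.6, against 42.5 in the other distal peaks.

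Genes with related roles were counted in the same way. Of 16 elongation factor and other TOP genes, 8 (50%) had a promoter peak, strongest at Npm1, the nucleolar chaperone gene, at 50.4 and Eef1b2, an elongation factor subunit gene, at 37.9. Btf3, Eif3f, Eif4b and Naca had none within 20 kb. Of 13 RNA polymerase I genes, 6 (46.2%) had one, led by Polr1c at 50.7 and Znrd1 at 45.3, while Cd3eap, Polr1d, Polr1e and Rrn3 were among those with no peak within 20 kb.

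Of 78 mitochondrial ribosomal protein genes, 28 (35.9%) had a promoter peak, led by Mrpl15 at 61.6 and Mrps5 at 61.0, with Mrpl10, Mrpl14, Mrpl16 and Mrpl17 among those with none within 20 kb. Of 32 ribosome biogenesis genes, 8 (25%) had one, led by Pes1 at 83.1 and Nop58 at 75.8, with Bop1, Efl1, Eif6 and Fbl, the fibrillarin gene, among those with none within 20 kb. Of 6 other ribosomal components outside the name rule, 1 had a promoter peak, Rps3a1 at 127.9, and Rpl22l1 had none within 20 kb. The interval for the ribosomal protein genes, 45.9 to 67.0, lay above that for the biogenesis list, 13.3 to 42.1, and overlapped those for the mitochondrial list, 26.1 to 47.0, and the TOP and polymerase lists.

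**Figure D5:**
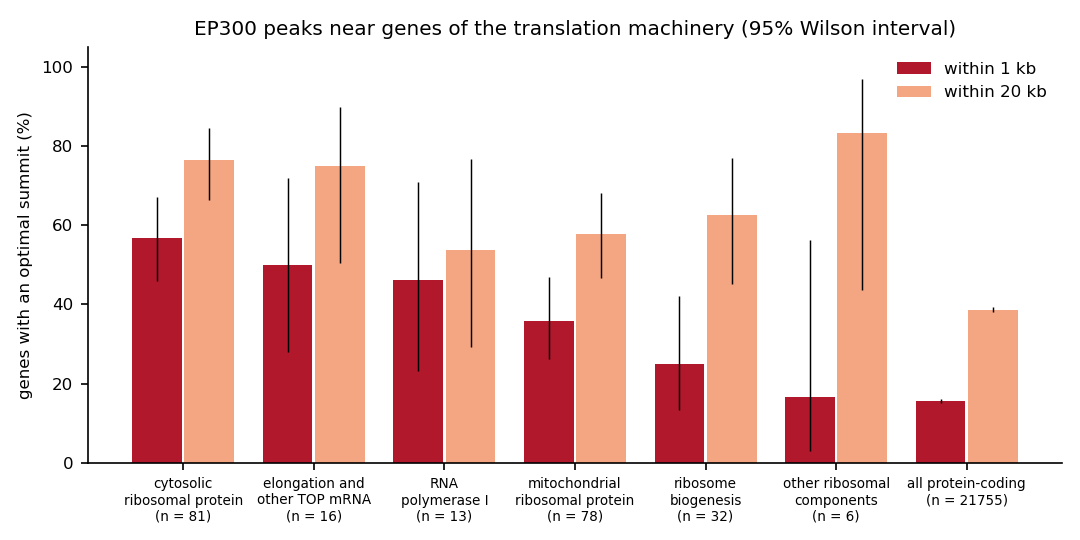
Percentage of genes with an optimal EP300 summit within 1 kb (dark) and 20 kb (light) of a TSS, for cytosolic ribosomal protein genes and other lists of the translation machinery, with all protein-coding genes at the right; lines are 95% Wilson intervals. Ribosomal protein genes stand at 56.8% within 1 kb and all protein-coding genes at 15.5%.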

How the data were processed

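EP300 ChIP-seq peak lists of 2 libraries from 1 group were used. Per the file listings deposited with the libraries, the authors called peaks in each library and on both together (300000 peaks each) and derived the optimal (17055) and conservative (15728) lists from these. The signal of a peak is a deposited value that is never negative, and each list has its own scale. Which aligner, peak caller and cutoff they used is not given in the sources used here. No read totals are given, so depth is unknown and intervals cover the counting of genes only. The deposited mm10 coordinates were kept and are printed counted from 1. The 17043 optimal peaks on 19 autosomes and X were set on GENCODE vM21 TSSs of all transcripts, with windows of 1 kb and 20 kb around the summit. Library summits were matched within 100 bp. Motifs were counted in 201-base windows of GRCm38 and in RefSeq promoters.

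The genes and lists were chosen with earlier results of these data known. Genes were named by rule: the 10 strongest and 5 weakest promoter peaks, genes without a peak in a window or with several, the 3 strongest and weakest Diamond-Blackfan genes, and the 2 strongest of each other list with up to 4 lacking peaks. Rps2, Rpl23a, Rps12, the distal peaks near Rpl6, Rpl3, Rpl34, Rps23, Rps16, Rpsa and Rps26, and the sequences printed were chosen after their values were seen. So were the word TCTCGCGA, its count without the 6 genes whose sequences prompted it, the counts with 1 TSS per gene or at least 6, and the count of any pooled peak. Some genes that the rule names are not reported here. Alternatives were other windows, lists, TSS sets and libraries. Scripts ran in Python 3.11.15 with pandas 2.3.3, pysam 0.24.0, statsmodels 0.14.6 and matplotlib 3.10.9, and were tested on simulated data.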

Additional observations from a re-analysis of the deposited data

How the results depend on the processing

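Of the 52 alternative values, 35 stayed within the set limits and 17 moved. The count of ribosomal protein genes with a promoter peak, 46, was 24 with optimal peaks at or above the median signal (29.6%, against 7.18% of all coding genes) and 76 with any pooled peak (93.8%, against 53.2%). The count within 20 kb, 62, was 32 with distal peaks alone (39.5%, against 26.7% of all coding genes). With 1 library at a time the counts ranged over 46 to 60 within 1 kb and 61 to 72 within 20 kb. The shares of all coding genes were then 17.1% to 17.8% within 1 kb and 39.8% to 40.5% within 20 kb. The median promoter signal was 40.6 with a 2.5 kb window. The median distance was −34.5 bp in the conservative list, −17 bp with TSSs of protein-coding transcripts and −30.5 bp with a 2.5 kb window. Within 50 bp of the summit, genes with a motif numbered 6 for GATA, 9 for CACCC, 9 for the GC box and 10 for ETS. They numbered 2 for YY1, 1 for the E-box and 0 for CRE, a narrower window holding fewer matches by construction. Against the other coding genes the shares there were 13.0% and 31.6% for GATA and 21.7% and 11.3% for ETS. For YY1 they were close, at 4.35% and 3.73%, unlike those within 100 bp. They were 19.6% and 23.7% for CACCC, 19.6% and 20.1% for the GC box, 2.17% and 2.83% for the E-box and 0% and 0.873% for CRE. Leaving out the 6 genes whose sequences prompted the word TCTCGCGA, 8 had that word, in place of 14. That fall was fixed in advance, since all 6 have the word within 100 bp of the summit. The share left was 20%, against 7.52% of the other coding genes. In the conservative list 2 had NRF1 and 5 the E-box. The cause of the other shifts was not tested. No paired analysis was possible because there was 1 group. Depth could not be assessed, and absence from the optimal list does not show that EP300 was absent, since 8 genes without an optimal promoter peak were in the conservative list.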
